A study of Mus musculus with 6 samples.

Results

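The genes described here encode the cytosolic translation initiation factors (Eif1 to Eif6), the elongation factors (Eef1 and Eef2) and the proteins named after them that bind or modify them. They were chosen by gene symbol from a table of 55433 genes: 70 symbols fitted the naming pattern, of which the Y-linked Eif2s3y and 4 Eif2ak kinases were left out, and 61 of the remaining 65 had at least 10 counts in 3 or more libraries. Those left out as low were Eef1akmt3 with 2 to 14 counts per library, Eif2c5 with 0 to 1, Eif4e1b with 0 in every library and Eif4ebp3 with 1 to 7. The members nearest above the minimum were Eef1akmt4 with 62 to 112 counts, Eif3j2 with 47 to 382 and Eef2kmt with 116 to 214. All 61 entered the test, and none passed the minimum through 1 group alone.

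The study profiled RNA of whole spinal cords from 6 C57BL/6J mouse embryos (the strain in the labels), taken at E13.5, to examine the role of the transcription factor NFIA in motor neuron development. The 3 control embryos had the genotype NFIA-ff, a floxed Nfia gene without cre, and the 3 NFIAcKO embryos had NFIA-ff with Nestin-cre, a transgene that drives cre in neural progenitors, so that cells outside the neural lineage keep the gene. Both groups carried the floxed gene and only the NFIAcKO embryos carried cre. Each embryo gave 1 library, and the p-values measure the spread between these embryos.

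In initiation, eIF2 brings the initiator tRNA to the small ribosomal subunit, eIF3 forms the scaffold there, and eIF4F binds the mRNA cap and unwinds the leader so that the subunit can scan to a start codon, a step that eIF1 and eIF1A monitor. eIF5 and eIF5B then release the factors and join the large subunit. In elongation, eEF1A delivers each aminoacyl-tRNA, the eEF1B subunits recharge it with GTP, and eEF2 moves the ribosome along by a codon. Axons and dendrites of neurons translate mRNA locally, and several factors have another form that is used mainly in neurons or muscle, such as eEF1A2.

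The bases around the start site of 6 members are shown because these genes recur in the results below: Eef2 as the only matched member with a short NFI palindrome, Eef1a1 and Eef1b2 as the abundant eEF1 genes, and Eif3a, Eif3m and Eif4g3 as members called in opposite directions. Each is 110 bases long, runs 5′ to 3′ on the gene's strand and comes from the RefSeq promoter table of build GRCm38.p6. Capitals mark the NFI palindrome and TATAAA in Eef2 and CCGGAAGT, the core that ETS factors bind, in Eef1b2. The coordinates are chr10:81176541-81176650 on the plus strand for Eef2, chr9:78481705-78481814 on the minus strand for Eef1a1, chr1:63176741-63176850 on the plus strand for Eef1b2, chr19:60790674-60790783 on the minus strand for Eif3a, chr2:105017008-105017117 on the minus strand for Eif3m and chr4:137993365-137993474 on the plus strand for Eif4g3.
Eef2: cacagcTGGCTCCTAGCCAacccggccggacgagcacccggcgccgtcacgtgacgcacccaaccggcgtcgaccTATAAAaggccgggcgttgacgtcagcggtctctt
Eef1a1: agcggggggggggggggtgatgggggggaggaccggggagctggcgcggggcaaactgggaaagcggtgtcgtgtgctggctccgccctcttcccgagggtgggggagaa
Eef1b2: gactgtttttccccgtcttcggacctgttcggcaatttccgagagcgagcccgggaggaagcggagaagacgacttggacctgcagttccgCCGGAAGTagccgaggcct
Eif3a: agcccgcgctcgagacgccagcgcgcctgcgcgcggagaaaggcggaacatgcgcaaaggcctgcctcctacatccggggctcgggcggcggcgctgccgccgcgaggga
Eif3m: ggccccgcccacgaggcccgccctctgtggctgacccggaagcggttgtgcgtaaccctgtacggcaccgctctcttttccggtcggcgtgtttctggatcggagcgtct
Eif4g3: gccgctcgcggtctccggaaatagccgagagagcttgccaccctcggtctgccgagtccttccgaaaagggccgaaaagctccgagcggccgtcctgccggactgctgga

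These motifs were searched on both strands of 300-base promoters, from 250 bases before to 50 after the start, and 48 of the 61 members matched an entry. The short NFI palindrome, TGGC and GCCA with any 5 bases between, was in 1 of the 48, Eef2, against 0.925% of all 27025 genes in the table, and the longer one, TTGGC and GCCAA with any 5 bases between, was in 0 of the 48 against 0.0444% of genes. In Eef2 the match began at position -84, and Eef2 itself did not pass the test between the groups (below). CCGGAAGT was in 8 of the 48, or 16.7%, against 4.31% of genes: Eef1b2, Eif2b2, Eif2b4, Eif3d, Eif3l, Eif4e2, Eif5a and Eif5a2. TATAAA was in 4, or 8.33%, against 15.7% of genes: Eef2, Eif2s1, Eif3b and Eif3f. These shares describe letters in the sequence, and say nothing about binding in these cords.

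Some facts of the whole series touch every result here. The counts assigned to genes summed to between 43393053 and 51465763 per library. Nfia itself, the targeted gene, was counted at 60.1, 59.1 and 79.2 CPM (counts relative to the scaled library size) in the libraries labelled control 1, 2 and 3 and at 106, 108 and 119 CPM in those labelled NFIAcKO 1, 2 and 3. It was higher in the libraries labelled NFIAcKO, with a log2 fold change of 0.75 ± 0.11 (SE) and an adjusted p of 0.0031. With the length and GC trend given further on removed, the log2 fold change was 0.62 ± 0.10 (adjusted p = 0.0111). The count was thus not lower where the labels give a knockout. A count over the whole gene cannot show whether the floxed part was lost, and whether the labels are right was not tested. The summed level of 6 neuron markers was 7886 to 8176 CPM in control and 8827 to 9238 CPM in NFIAcKO libraries, with 2 of the 6 (Elavl3 and Dcx) called higher, and that of 6 progenitor markers was 2321 to 2511 against 2221 to 2495 CPM, with Nes called higher and Hes5 and Fabp7 lower. That of 6 endothelial markers was 265 to 318 against 341 to 365 CPM, with 4 called higher and 1 lower. That of 6 microglial and macrophage markers was 81.0 to 87.1 against 63.1 to 71.1 CPM, with 2 called lower. That of 6 dividing-cell markers was 199 to 304 against 272 to 353 CPM, with Mki67 called higher. Every neuron and progenitor marker was detected in every library. In whole tissue, fewer cells of a type and less RNA per cell cannot be told apart, and the part of these shifts in the results below was not tested. The marker levels and calls are as counted, without the removal of the length and GC trend given further on. What part of them goes with that trend was not tested. Control replicate 3 lay nearest to the NFIAcKO libraries, and control replicate 2 farthest from them, in all 16 members called below. Over all 2468 called genes, control replicate 3 was nearest in 83.3%.

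Of the 61 factor genes, 6 rose and 10 fell in the libraries labelled NFIAcKO, at an adjusted p under 0.05 in edgeR's quasi-likelihood test with Benjamini-Hochberg adjustment over all 17711 tested genes. That is 26.2% of the members, beside 13.9% of all tested genes (7.86% higher and 6.08% lower). The median log2 fold change of the members was -0.15, beside -0.01 for all tested genes, and 45 of the 61 values were below 0. The 6 that rose were Eif3a, Eif5b, Eif4g3, Eif4g1, Eif4ebp2 and Eif4enif1, which encode large proteins of the scaffold, of subunit joining and of the cap complex, and a pair of eIF4E binders. The 10 that fell were Eef1akmt1, Eif3i, Eif3m, Eif4a2, Eef1a1, Eef1e1, Eef1b2, Eif1, Eif3h and Eif3k, with small subunits of eIF3 and of eEF1 among them. Sizes were modest, from 1.21-fold to 1.45-fold higher and from 1.23-fold to 1.498-fold lower. With a trend on gene length and GC content removed, 5 of the 16 kept their calls and 10 of the log2 fold changes shrank by more than 1.5 times, as given further on. The NFIAcKO libraries lay wholly above the controls in 8 members and wholly below in 29, beside 17.3% and 16.1% (33.4% in all) of all tested genes.

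**Figure D1:**
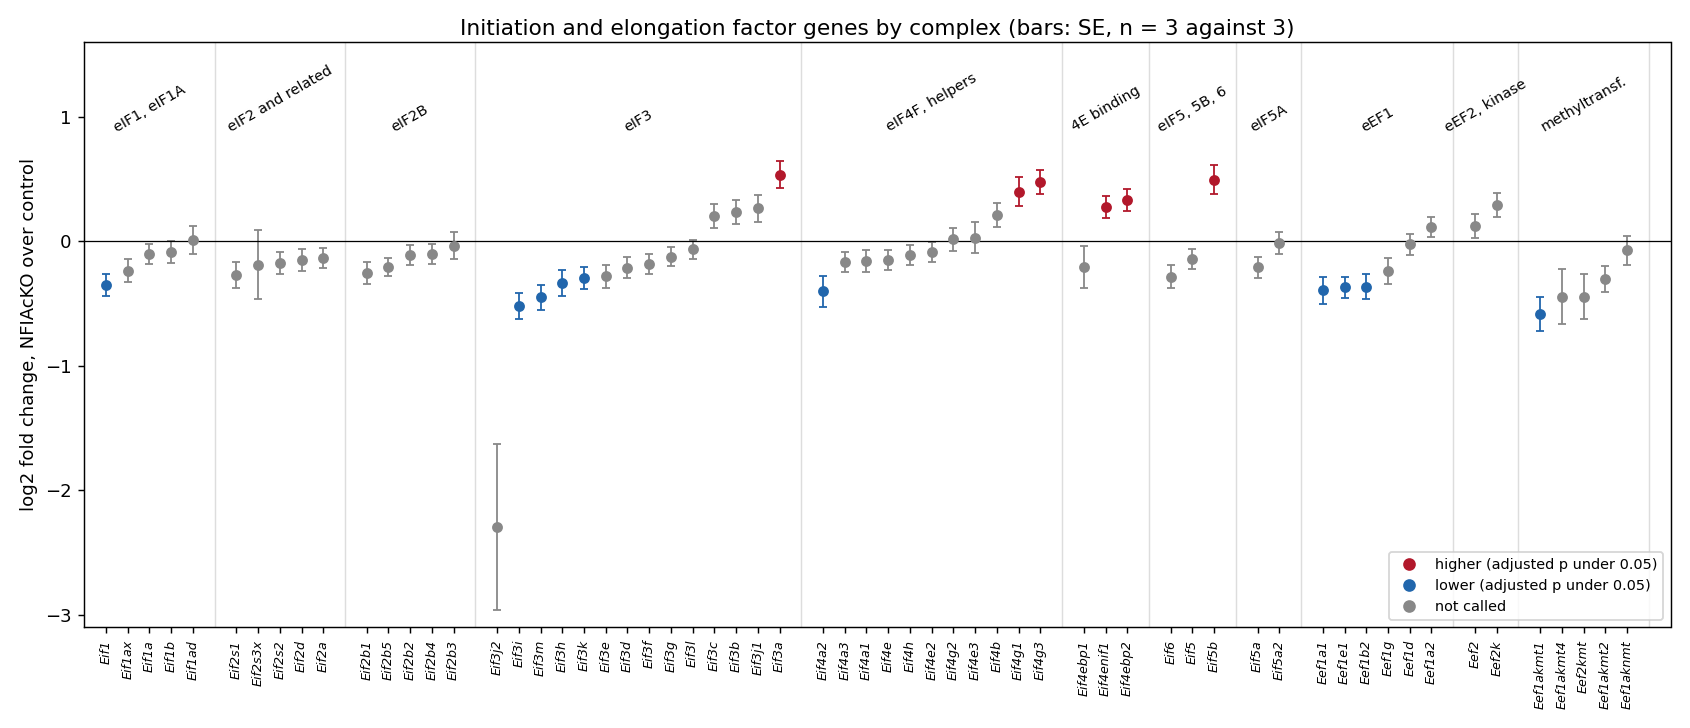
Log2 fold change (NFIAcKO over control) of each of the 61 factor genes, grouped by complex, with bars of 1 SE (n = 3 against 3). The 6 genes called higher sit in eIF3, the cap complex, the eIF4E binders and eIF5B, the 10 called lower include 4 of eIF3 and 3 of eEF1, and Eif3j2 at -2.29 has the widest bar.

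Among the 6 eEF1 genes, 3 fell, none rose and 3 did not pass the test, and their median log2 fold change was -0.30. Eef1a1, which encodes the eEF1A of most tissues and had the highest level of any factor per length, 2232 CPM per kb of annotated exon, stood at 6381, 7064 and 5501 CPM in control libraries 1 to 3 and at 4757, 5261 and 4416 CPM in NFIAcKO libraries 1 to 3. The groups did not overlap, with control replicate 3 and NFIAcKO replicate 2 closest to each other. Its log2 fold change was -0.39 ± 0.11, 1.31-fold lower, with an adjusted p of 0.031. It made up 0.561 to 0.723% of all gene counts in the control libraries and 0.440 to 0.503% in the NFIAcKO libraries. Of its 50-base words, 40.4% also occur in other annotated genes, 21 in all, so its count depends on how the authors treated reads with several matches.

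The exchange subunit gene Eef1b2 fell from 372 ± 57.3 CPM (SD, n = 3) to 289 ± 9.83 CPM, a log2 fold change of -0.36 ± 0.10 with an adjusted p of 0.0295. Its control libraries spread from 319 to 432 CPM and its NFIAcKO libraries from 281 to 300.1 CPM, so the NFIAcKO libraries were the tighter group. Eef1e1, whose product binds the multi-synthetase complex rather than the eEF1B core, was at 69.5, 76.9 and 64.1 CPM in control and at 55.6, 53.4 and 54.1 CPM in NFIAcKO libraries. All 3 NFIAcKO libraries were below all 3 controls, and the fall was -0.37 ± 0.08 on the log2 scale with an adjusted p of 0.0134. The other exchange subunits had log2 fold changes of -0.24 (Eef1g, adjusted p = 0.14) and -0.02 (Eef1d, adjusted p = 0.88), neither called. Eef1a2, the form used in mature neurons and muscle, was not called: it was at 177, 154 and 168 CPM in control and 188, 170 and 182 CPM in NFIAcKO libraries, which overlap.

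The translocase gene Eef2, at 804 CPM per kb next to Eef1a1 in level, was at 2618, 2339 and 2723 CPM in control and at 2857, 2926 and 2574 CPM in NFIAcKO libraries. The groups overlapped, and the log2 fold change of 0.12 ± 0.10 had an adjusted p of 0.43. Eef2k, the kinase that inhibits eEF2, missed the threshold narrowly, with a log2 fold change of 0.29 and an adjusted p of 0.0501. It was called by DESeq2 (0.0285), with the replicate number as a block (0.035) and with the file number as a block (0.0253). The file number, part of the file names, is shared by replicates 1 and 2 of both groups and differs in replicate 3 of both. It was not called by limma-voom (0.0577) or with upper quartile scaling (0.0846). With the length and GC trend removed, the log2 fold change of Eef2k was 0.17, with an adjusted p of 0.18. Among the methyltransferases that modify the elongation factors, 1 of 5 fell: Eef1akmt1, an eEF1A lysine methyltransferase, was at 21.1, 27.1 and 19.3 CPM in control and at 16.1, 16.02 and 12.96 CPM in NFIAcKO libraries. This was the steepest called fall of any member, -0.58 ± 0.13 on the log2 scale with an adjusted p of 0.014. The other 4 of the group, Eef1akmt2, Eef1akmt4, Eef1aknmt and Eef2kmt, were not called, with log2 fold changes from -0.44 to -0.07.

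The hypusine-bearing eIF5A helps ribosomes through stalling sequences. Eif5a was at 463, 503 and 448 CPM in control and at 400.2, 437 and 386 CPM in NFIAcKO libraries, lower without overlap but not called (log2 fold change -0.21, adjusted p = 0.12). Eif5a2, the less abundant form at 6.56 against 185 CPM per kb for Eif5a, had a log2 fold change of -0.01 (adjusted p = 0.94).

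eIF3 held members that moved in opposite directions. Of its 14 genes, 1 rose, 4 fell and 9 did not pass the test, with a median log2 fold change of -0.20. Eif3a, which encodes the largest subunit and organises the complex, was at 321, 259 and 365 CPM in control and at 438, 483 and 451 CPM in NFIAcKO libraries. All NFIAcKO libraries exceeded all controls, and the rise of 0.54 ± 0.11 on the log2 scale had an adjusted p of 0.0088. The call was kept with each of the 6 libraries left out in turn, with a largest adjusted p of 0.048.

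Eif3i, a subunit that forms a module with eIF3b and eIF3g, fell from 125, 149 and 110 CPM in control to 89.96, 95.3 and 82.6 CPM in NFIAcKO libraries. The groups were apart by more than the spread of the NFIAcKO libraries, and the log2 fold change was -0.52 ± 0.10 with an adjusted p of 0.0084. Eif3m, Eif3h and Eif3k, which belong with eIF3a to the PCI and MPN domain core of the complex, fell by 0.45 ± 0.10, 0.34 ± 0.10 and 0.29 ± 0.09 on the log2 scale, with adjusted p-values of 0.0122, 0.043 and 0.0449. For Eif3m, the level was 118, 141 and 105 CPM in control and 88.0, 94.9 and 83.7 CPM in NFIAcKO libraries, and for Eif3h, the most abundant of eIF3 at 190 CPM per kb, it was 330.2, 402 and 295 CPM and 259, 286 and 268 CPM. In Eif3k the control libraries were at 126, 147 and 119 CPM and the NFIAcKO libraries at 107, 114 and 98.8 CPM, so again no library of one group entered the range of the other.

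The other eIF3 genes were not called, with log2 fold changes of 0.24 for Eif3b, 0.20 for Eif3c, 0.27 for the loosely bound Eif3j1, -0.28 for Eif3e (adjusted p = 0.0568), and between -0.21 and -0.06 for Eif3d, Eif3f, Eif3g and Eif3l. Eif3j2, a near copy of Eif3j1 that shares 90.8% of its 50-base words with it, had 275, 382 and 60 counts in the control libraries and 47, 49 and 47 in the NFIAcKO libraries. Control replicate 3 thus resembled the NFIAcKO libraries rather than the other controls. Its log2 fold change of -2.29 ± 0.67 did not pass the test (adjusted p = 0.084), but without control replicate 3 the adjusted p was 2.68e-08. With all 6 libraries it was called by DESeq2 (0.00733), with the replicate number as a block (0.0271) and with the file number as a block (0.0183), so the call turns on the method as well as on that library. Reads of Eif3j1 and Eif3j2 are hard to tell apart, and both counts are uncertain for that reason. The summed level of the 14 genes was 2417 to 2464 CPM in control and 2316 to 2543 CPM in NFIAcKO libraries, ranges that overlap.

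**Figure D2:**
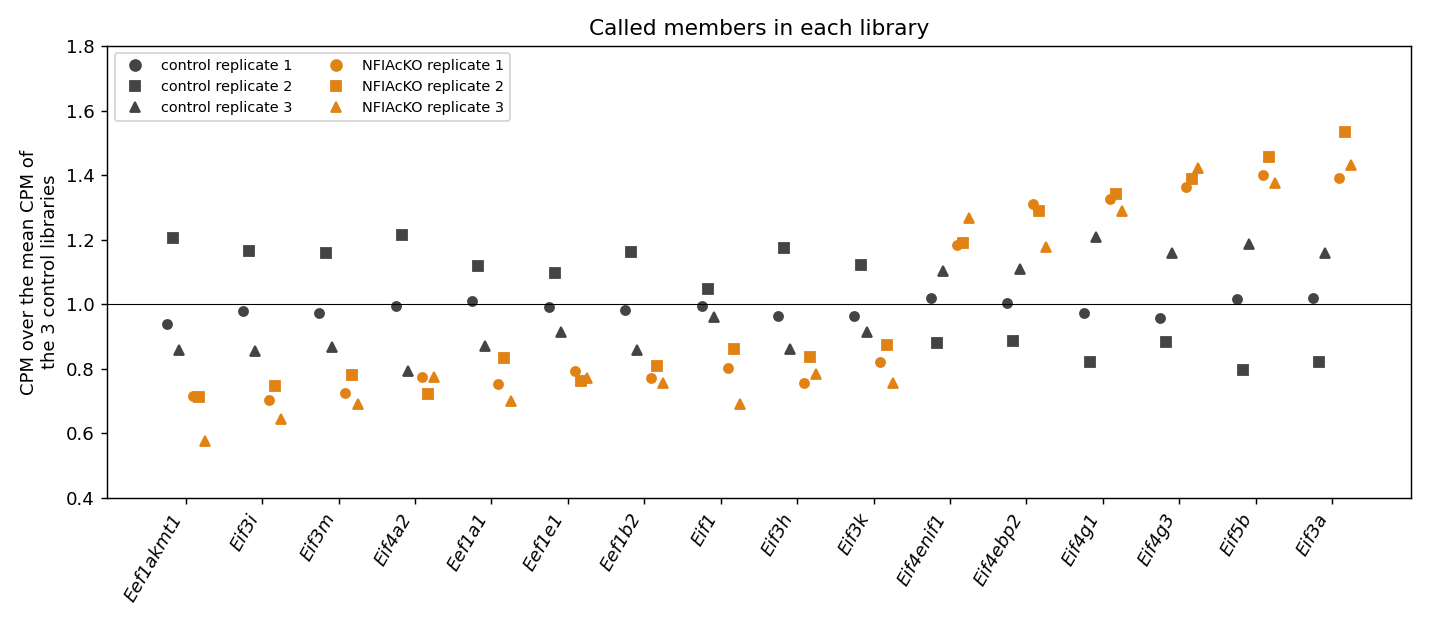
CPM of the 16 called genes in each library, divided by the mean of the 3 control libraries. For the 10 genes on the left every NFIAcKO library is below every control, for the 6 on the right every one is above, and control replicate 3 is the control nearest to the NFIAcKO libraries in all 16.

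The eIF4F complex and its helpers had 2 genes that rose and 1 that fell among 11. Eif4g1 and Eif4g3, the paired scaffold genes that hold the cap-binding protein and the helicase together, both rose. Eif4g3 was at 227, 209 and 275 CPM in control and at 323, 328 and 337 CPM in NFIAcKO libraries. These groups were well apart, and its log2 fold change was 0.48 ± 0.10 with an adjusted p of 0.0087. Eif4g1 was at 488, 412 and 607 CPM and at 666, 673 and 647 CPM, a rise of 0.40 ± 0.12 with an adjusted p of 0.0352. The controls of Eif4g1 ranged more widely than its NFIAcKO libraries, and control replicate 3 lay closest to them.

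The helicase gene Eif4a2 fell from 533, 652 and 425 CPM in control to 416, 388 and 416 CPM in NFIAcKO libraries, by 0.40 ± 0.12 on the log2 scale with an adjusted p of 0.0477. Control replicate 3 was just above the NFIAcKO libraries, and control replicates 1 and 2 were well above. Eif4a1, the main form of the same helicase at 176 CPM per kb, was not called (log2 fold change -0.16, adjusted p = 0.25). Eif4g2, an eIF4G relative that lacks the cap-binding part and works on some leaders without eIF4E, was the most abundant of the group at 304 CPM per kb and was at 3099, 3049 and 3061 CPM in control and at 2952, 3309 and 3055 CPM in NFIAcKO libraries. Its log2 fold change of 0.02 ± 0.09 had an adjusted p of 0.93. The other 6, Eif4a3, Eif4b, Eif4e, Eif4e2, Eif4e3 and Eif4h, had log2 fold changes from -0.17 to 0.21 and were not called.

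Of the proteins that bind eIF4E and hold it away from eIF4G, Eif4ebp2, the main form of the brain, rose from 171, 151 and 190 CPM to 224, 220 and 201 CPM, by 0.33 ± 0.09 on the log2 scale with an adjusted p of 0.0274. Eif4enif1, which encodes the eIF4E transporter of the nucleus and of mRNA granules, rose from 81.2, 70.1 and 87.9 CPM to 94.3, 94.9 and 101 CPM, by 0.28 ± 0.09 with an adjusted p of 0.0489. In both, the lowest NFIAcKO library was above the highest control. Eif4ebp1 was scarce, at 3.73 to 5.25 CPM over the 6 libraries, and was not called (log2 fold change -0.21).

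Among the factors of start site choice and subunit joining, Eif1 fell and Eif5b rose. Eif1, which keeps the scanning subunit from starting at the wrong codon, was at 264, 278 and 255 CPM in control and at 213, 229 and 183 CPM in NFIAcKO libraries. The groups were apart, with a log2 fold change of -0.35 ± 0.09 and an adjusted p of 0.0215. Its paralogue Eif1b and the genes Eif1a, Eif1ax and Eif1ad were not called, with log2 fold changes from -0.23 to 0.01. Eif5b, the GTPase of subunit joining, was at 127, 99.4 and 148 CPM in control and at 175, 182 and 172 CPM in NFIAcKO libraries, a rise of 0.50 ± 0.12 with an adjusted p of 0.0156. Its exons overlap those of Rev1 on the opposite strand over 1643 bp, and the strand setting of the counting is not given in the sources used here. Eif5, which triggers GTP hydrolysis on eIF2, and Eif6, which keeps the large subunit from joining early, had log2 fold changes of -0.14 and -0.28, and Eif6 just missed the threshold (adjusted p = 0.0532; 0.0203 with the file number as a block).

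The eIF2 group holds the subunit genes Eif2s1, Eif2s2 and Eif2s3x, and also Eif2a and Eif2d, whose products are not subunits of eIF2. Neither these 5 genes nor the 5 of the exchange factor eIF2B held a gene that passed the test in the main edgeR fit. All 10 log2 fold changes were below 0 in that fit, though not in every other fit. At an unadjusted p under 0.05 there were 1 of eIF2 (Eif2s1) and 2 of eIF2B (Eif2b1 and Eif2b5), beside 29.8% of all tested genes. DESeq2 called Eif2b1 and Eif2b5, with adjusted p-values of 0.0436 and 0.0487, and limma-voom called 0. Other edgeR fits called some of these genes. Without control replicate 3, Eif2s1 (adjusted p = 0.0016), Eif2b1 (0.0051), Eif2s2 (0.022) and Eif2b5 (0.0381) were called, beside 28.4% of all genes. Upper quartile scaling called Eif2b1 (0.0399) and Eif2b5 (0.0358), and the file number as a block called Eif2b1 (0.0482). With no filter on low counts Eif2s1 was called (0.0341). These cases are not all of them. The medians were -0.17 over the 5 genes of the eIF2 group and -0.10 over the 5 eIF2B genes. The smallest p in each was that of Eif2s1, which encodes the subunit phosphorylated in the integrated stress response, at -0.27 (adjusted p = 0.093), and of Eif2b1 at -0.25 (adjusted p = 0.07). In Eif2s1 the control libraries were at 111, 132 and 94.9 CPM and the NFIAcKO libraries at 92.4, 96.8 and 91.2 CPM, and the groups overlapped. The highest levels per kb were those of Eif2s2 at 22.3 and Eif2b5 at 39.5 CPM. With the length and GC trend removed, the log2 fold change of Eif2b2 was 0.038 and the others were below 0. That of Eif2b3 was 0.041 without control replicate 3, and that of Eif2s3x was 0.056 without control replicate 2. Eif2s3x, an X-linked gene, was high in the same libraries as Xist: it was at 44.7, 70.0 and 44.1 CPM in control and at 40.0, 61.5 and 38.1 CPM in NFIAcKO libraries, while Xist was at 335 and 201 CPM in replicate 2 of each group and no more than 0.0635 CPM elsewhere. The Y-linked Eif2s3y had 0 counts in replicate 2 of each group and 573 to 1133 elsewhere. By Xist and Eif2s3y, replicate 2 of each group was thus female and the others male. With the Xist level as a covariate the log2 fold change of Eif2s3x was -0.16 (adjusted p = 0.17), beside -0.19 (adjusted p = 0.71) without.

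Most of these calls did not hold with fewer libraries. Leaving out each library in turn, the call of Eif3a was kept in all 6 fits. That of Eif4g3 was lost without control replicate 1 and without NFIAcKO replicate 3, with adjusted p-values of 0.0567 and 0.057. Those of Eef1akmt1, Eif3i and Eif3m were lost without NFIAcKO replicate 1 or 3, at 0.0513 to 0.0739. The calls of Eif4g1, Eif4ebp2, Eif4enif1, Eif4a2, Eef1b2, Eif3h and Eif3k were kept only where control replicate 3 was the library left out, and otherwise had adjusted p-values from 0.0681 to 0.188. Those of Eif5b and Eef1e1 were kept without control replicate 2 or 3, with 0.054 to 0.0666 otherwise, that of Eef1a1 without control replicate 3 or NFIAcKO replicate 2, with 0.0592 to 0.129 otherwise, and that of Eif1 was lost without control replicate 1, NFIAcKO replicate 1 or NFIAcKO replicate 3, at 0.0729 to 0.0908. In all 16 genes the log2 fold change kept its sign in each of these fits. Without control replicate 3, 11 members were called higher and 22 lower, beside 28.4% of the genes tested in that fit called in either direction. With any other library left out, 2.48 to 6.16% of all tested genes were called in either direction.

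The members that rose were long and those that fell were short. The 6 that rose had a median annotated exonic length of 8016 bp, from 5784 to 11063 bp, and the 10 that fell had 2561 bp, from 947 to 5338 bp, beside 3575 bp over 60 members with an annotated length and 3976 bp over all tested genes. The rank correlation (Spearman) of length with log2 fold change was 0.526 across the 60 members, and 0.396 across 17510 tested genes of the same libraries, where genes are not independent replicates. Within libraries, log2 CPM changed per doubling of length by -0.0645, -0.117 and -0.0188 in control replicates 1, 2 and 3 and by 0.0674, 0.0396 and 0.0931 in NFIAcKO replicates 1, 2 and 3, so that all 3 NFIAcKO libraries favoured longer genes relative to all 3 controls. With the trend of each library on length and GC content removed, the correlation was 0.165 across the members and -0.0619 across all genes, and the median log2 fold change of the members was -0.10, beside 0.01 for all genes. In that fit 3 members were called higher and 3 lower, beside 3.82% and 3.87% (7.69% in all) of all tested genes. The 3 higher were Eif3a at 0.43 (adjusted p = 0.0275), Eif4g3 at 0.25 (adjusted p = 0.0431) and Eif4ebp2 at 0.25 (adjusted p = 0.0388), and the 3 lower were Eif3i at -0.47 (adjusted p = 0.019), Eef1e1 at -0.23 (adjusted p = 0.0452) and Eif4h at -0.22 (adjusted p = 0.0467). Eif4h, an activator of the eIF4A helicase, was not called as counted (-0.11, adjusted p = 0.38). The other 11 called genes kept their sign, with adjusted p-values from 0.0773 (Eif4a2) to 0.325 (Eif3h). Many were smaller: the log2 fold change was -0.12 for Eif3h, -0.17 for Eif3m, -0.29 for Eef1akmt1, -0.19 for Eif1, -0.20 for Eef1b2, -0.25 for Eef1a1, -0.19 for Eif3k and 0.25 for Eif4g1, each more than 1.5 times below its value as counted, as were those of Eef1e1 and Eif4g3 above. What part of the members' changes goes with this length trend was tested no further.

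**Figure D3:**
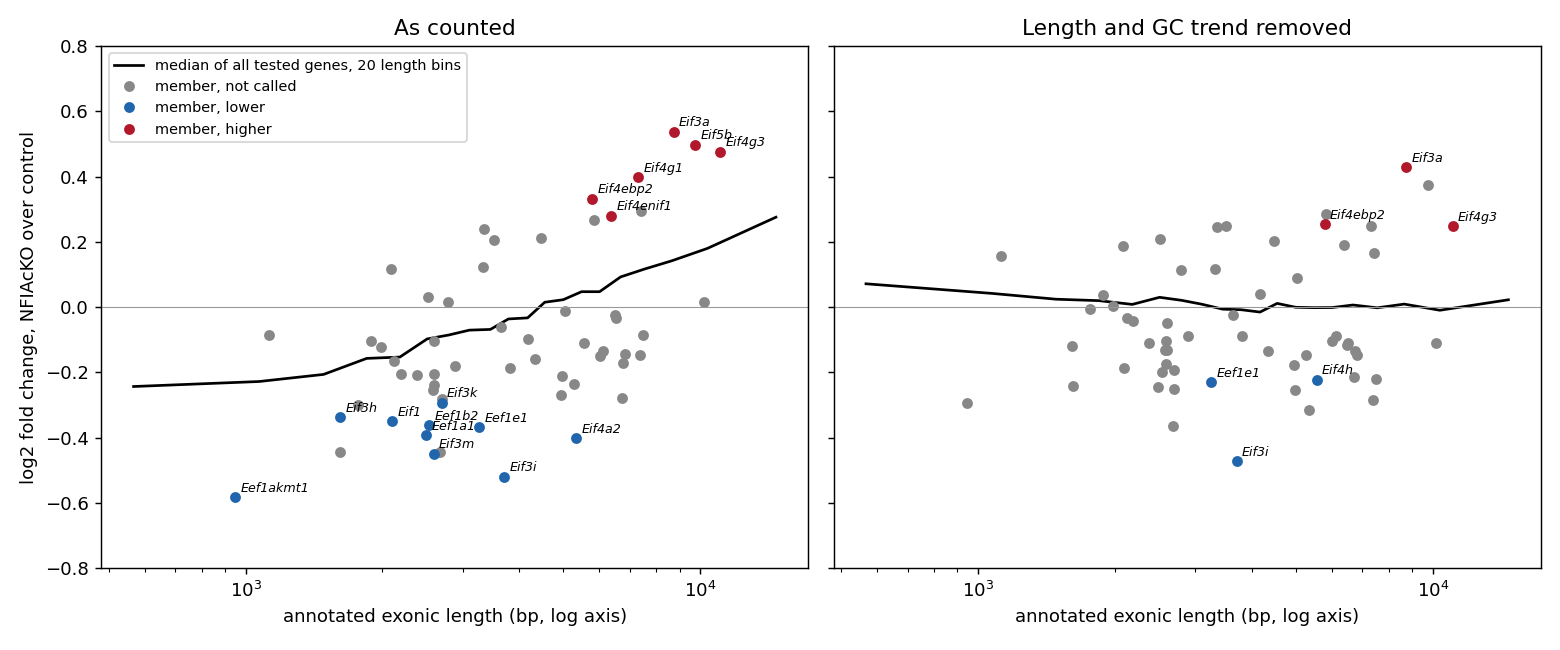
Log2 fold change (NFIAcKO over control) against annotated exonic length (bp, log axis) for the members, as counted on the left and with each library's length and GC trend removed on the right; the line is the median of all tested genes in 20 length bins, and Eif3j2, at -2.29, lies below the axis. On the left the 6 genes called higher span 5784 to 11063 bp, and on the right the line is near 0 and 3 genes are called in each direction.

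Where a factor has a pair of forms, their ratio within a library does not depend on how libraries are scaled. Per kb of exon, Eef1a1 exceeded Eef1a2 by 30.2, 38.4 and 27.4 times in control libraries and by 21.2, 25.9 and 20.3 times in NFIAcKO libraries, so the groups did not overlap. The log2 ratio of Eef1a2 to Eef1a1 was 0.51 higher in NFIAcKO libraries, and 0.43 higher with the length and GC trend removed. The ratio of Eif4ebp2 to Eif4ebp1 was 16.5, 10.96 and 13.7 in control and 21.6, 17.1 and 20.5 in NFIAcKO libraries, 0.54 higher on the log2 scale, and 0.29 higher with the trend removed (exact permutation p = 0.2). That of Eif1 to Eif1b was 1.10, 1.05 and 1.21 in control and 0.957, 0.956 and 0.857 in NFIAcKO libraries, a log2 difference of -0.27. These 3 of the 7 pairs did not overlap between the groups, each with p = 0.1 in an exact two-sided permutation test, which is the smallest p that the 20 arrangements of 3 against 3 allow, and 0.233 after Benjamini-Hochberg adjustment over the 7 pairs. The remaining 4 pairs overlapped, with log2 differences of -0.13 for Eif1ax over Eif1a, -0.22 for Eif4a2 over Eif4a1, 0.07 for Eif4g3 over Eif4g1 and 0.20 for Eif5a2 over Eif5a, and exact permutation p-values from 0.2 to 0.4.

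**Figure D4:**
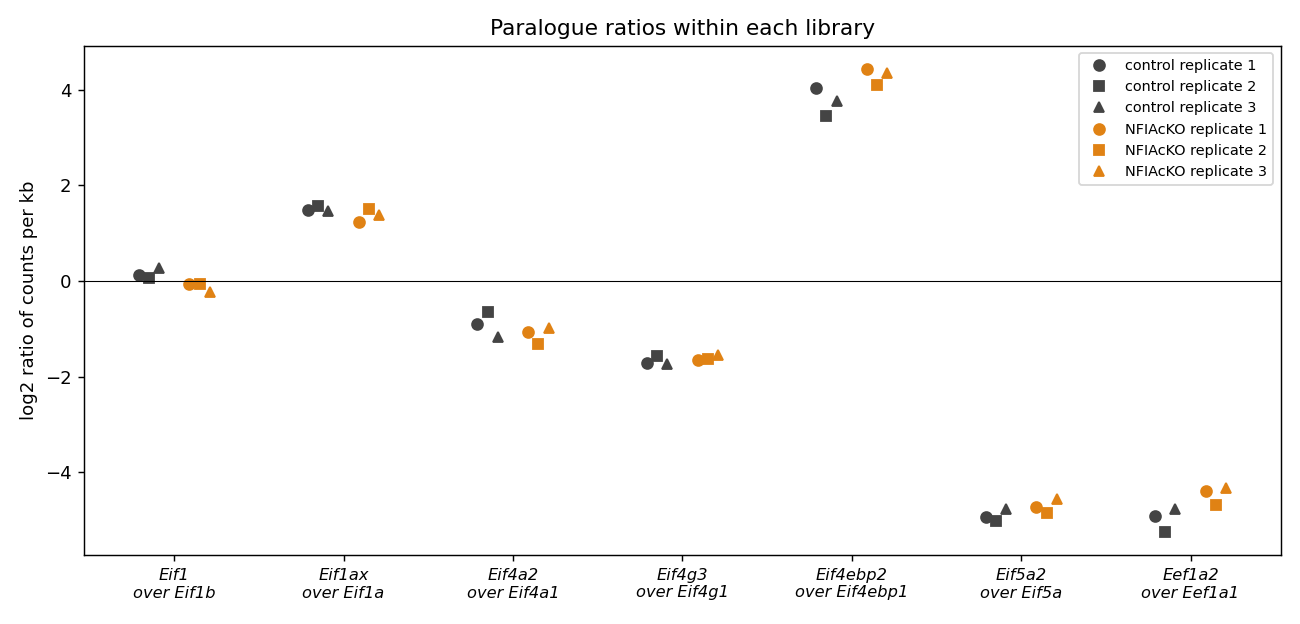
Log2 ratio of the counts per kb of 7 pairs of paralogous factor genes in each library. The groups do not overlap for Eif1 over Eif1b, Eif4ebp2 over Eif4ebp1 and Eef1a2 over Eef1a1, and overlap for the other 4 pairs.

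The factors together took 2.13 to 2.28% of all gene counts in the control libraries and 1.90 to 2.03% in the NFIAcKO libraries, of which Eef1a1 took the shares given above. On the scaled library sizes used for every other level here, the summed level was 21734, 22326 and 20880 CPM in control and 19814, 21252 and 19066 CPM in NFIAcKO libraries, and these ranges overlap. Per kb of exon the order of levels was led by Eef1a1 at 2232, Eef2 at 804, Eif4g2 at 304, Eif3h at 190, Eif5a at 185, Eif4a1 at 176, Eef1g at 168 and Eef1b2 at 131 CPM per kb, and ended at Eef1akmt4 with 1.15 CPM per kb.

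The wider translation apparatus was read from 93 other listed genes, of which 91 were tested: 7 rose and 5 fell, 13.2% in all, close to the 13.9% of all tested genes. Of 15 genes of the eIF2 kinases and the integrated stress response, 1 passed: Gcn1, an activator of the kinase GCN2, rose from 91.6 ± 10.5 CPM (SD, n = 3) to 115 ± 4.39 CPM, with a log2 fold change of 0.32 and an adjusted p of 0.0276. Atf4, the transcription factor whose translation rises when eIF2 is phosphorylated, was at 124 ± 5.08 and 107 ± 10.5 CPM and was not called (adjusted p = 0.10). Of 13 genes of TOR signalling to translation, 3 rose and 1 fell. The steepest of them was Larp1, a repressor of mRNAs with a pyrimidine tract at their start, from 146 ± 25.3 to 199 ± 7.53 CPM (log2 fold change 0.44, adjusted p = 0.0161), and Mtor rose by 0.31 (adjusted p = 0.0283). Tsc2 was also higher and Rheb lower. With the length and GC trend removed, the log2 fold changes of Mtor and Tsc2 were 0.0754 and 0.0711 (adjusted p = 0.478 and 0.494), and neither was called.

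Of 14 helpers of initiation, the poly(A) binding protein gene Pabpc1 rose from 521 ± 82.4 to 691 ± 28.3 CPM (log2 fold change 0.41, adjusted p = 0.0212), and Cdc123, needed to assemble eIF2, had a log2 fold change of -0.27 (adjusted p = 0.0435). Of 8 genes of hypusine and diphthamide synthesis, which modify eIF5A and eEF2, 2 fell: Dhps, the first enzyme of hypusine formation, from 35.5 ± 4.97 to 25.7 ± 1.02 CPM (log2 fold change -0.47, adjusted p = 0.013), and Dph3 from 56.4 ± 5.58 to 43.4 ± 1.61 CPM (log2 fold change -0.38, adjusted p = 0.0144). Among 22 tRNA synthetase and scaffold genes, Eprs and Iars rose and Dars fell, with adjusted p-values of 0.0334, 0.0387 and 0.0329. Of 9 termination and ribosome rescue genes and 10 mitochondrial translation factors none was called in edgeR, DESeq2 or limma-voom. At an unadjusted p under 0.05 there were 1 and 2 of them, and the nearest to the threshold were Gspt2 and Gtpbp1 (adjusted p = 0.10 and 0.25) and Mtif2 and Mtrf1 (adjusted p = 0.13 and 0.14). These counts hung on single libraries, as did those of all tested genes. Without control replicate 3, 17 of the listed genes were called higher and 17 lower, beside 28.4% of all genes in either direction. With any other library left out, 0 to 1 were higher and 0 to 2 lower, beside 2.48 to 6.16% of all genes. With the length and GC trend removed, 4 were called higher (Gcn1, Larp1, Pabpc1 and Pdcd4) and 4 lower (Dhps, Dph3, Paip2b and Rheb), and Tsc2, Mtor, Cdc123, Eprs, Iars and Dars lost their calls, with adjusted p-values from 0.0533 to 0.795.

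Several counts are uncertain because the genes share sequence or exons with others. Of their 50-base words, 44.2% of Eef1g, 37.2% of Eif3d, 34.6% of Eif2s3x, 28.4% of Eif4a1, 20.3% of Eif3h, 19.2% of Eif1, 18.4% of Eif3m and 13.6% of Eif4a2 also occur in other annotated genes, and 24 members overlap another annotated gene in exons. Among the called ones these include Eef1a1, Eef1b2, Eif3m, Eif4a2, Eif4g1 and Eif5b.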

How the data were processed

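RNA was sequenced from whole spinal cords of 3 control and 3 NFIAcKO embryos. Per the labels' protocols, RNeasy columns served for RNA and a stranded mRNA kit of Illumina for the libraries. The submitters' processing notes list DESeq2, HTSeq, STAR 2.6.1a and mm10, with no role or order. Each deposited file holds raw whole-number counts for the gene symbols of 1 library; 5 summary lines per file, 16.9 to 19.4% of its total, were left out of library sizes and tests. The strand setting of the counting, like its annotation release, is not given in the sources used here.

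Counts of all genes were scaled by TMM and filtered with filterByExpr, and 17711 genes were tested with edgeR 4.0.16 (robust quasi-likelihood F test, Benjamini-Hochberg adjustment, threshold 0.05) in R 4.3.3. Each SE was computed as |log2 fold change| divided by the root of F. Levels are CPM on the scaled library sizes, and levels per kb use exonic lengths of GENCODE M21 on GRCm38, which 98.8% of tested genes matched. DESeq2 1.42.0, limma 3.58.1 (voom), other scalings and filters, a replicate block, a fit with each library's length and GC trend removed, an Xist covariate and leaving out each library were alternatives. The edgeR step was tested on simulated counts for 17423 genes. Changes of 1.5-fold were called for 76% and of 2-fold for 93% of the genes given them. Unchanged genes made up 10.1% of calls, more than the threshold of 0.05 aims at. No change smaller than 1.5-fold and no trend on gene length was simulated, and every called member changed by less than 1.5-fold. Libraries of a group differed by 10.9 to 45.3 times the counting noise (chi-square per degree of freedom), so none was a duplicate. Sequencing batches are not given in the labels.

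The members, complexes and lists were chosen with earlier results of these data known. Named with values are all called members, in each complex the member with the smallest p and that with the highest level per kb, 7 paralogue pairs, and the 2 smallest p of each list of other translation genes; others named beside these were chosen after their values were seen.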

Additional observations from a re-analysis of the deposited data

How the results depend on the processing

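The counts of 6 members called higher and 10 lower moved with the fit. DESeq2 called 16 lower, beside 8.31% of all genes, and the trend-removed fit called 3 higher and 3 lower. Of the called members, limma-voom did not call Eif3h (adjusted p = 0.0583), Eif3k (0.0585), Eif4a2 (0.0625) and Eif4enif1 (0.0569), and kept the others. It called 12.3% of all genes. Eif4enif1 was also not called with RLE size factors (0.0514) or upper quartile scaling (0.082). File names carry 1 number in replicates 1 and 2 of both groups and another in control replicate 3 and NFIAcKO replicate 3; what it stands for is not given in the sources used here. Without those 2 libraries the counts were 11 and 17, beside 16.1% and 13.1% of all genes, and with this number as a block they were 7 and 14, beside 9.6% and 7.97%; Eef2k, Eif6, Eif3e, Eif2b1 and Eif3j2 were called in that block. Leaving out 1 library gave 1 to 11 higher and 0 to 22 lower; the fits with 0 lower (edgeR, without NFIAcKO replicate 1 or 3) had 12 and 19 lower at an unadjusted p under 0.05. For the 7 other translation genes called higher, upper quartile scaling gave 4, the trend-removed fit 4, the fit without replicate 3 of both groups 19 and leaving out 1 library 0 to 17. For the 5 called lower, DESeq2 and upper quartile scaling gave 8, the fit without replicate 3 of both groups 15 and leaving out 1 library 0 to 17. With 0 of these genes called, 9 to 11 were higher and 6 to 16 lower at an unadjusted p under 0.05.

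With the replicate number as a block, 7 members were higher and 12 lower, beside 7.64% and 6.32% of all genes, and with the block and the trend removed, 3 and 6, beside 3.99% and 4.47% (other translation genes: 4 higher). Same-numbered libraries deviated together by correlations of 0.0875, 0.120 and 0.119, while differently numbered ones had correlations from -0.0894 to -0.0369. Each library thus correlated best with its own number. These values cannot tell whether the numbers pair the embryos, and the main fit did not pair them.

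Signs turned only among values not called, and the cases given here are not all of them. Eif2b2 became 0.0379 with the length and GC trend removed, Eif2b3 0.0409 without control replicate 3 and Eif2s3x 0.0555 without control replicate 2. Eif1a became 0.0387 and 0.0399, and Eif1b 0.158, with the trend removed, with and without the block. Eif4g2 became -0.0228 under upper quartile scaling, -0.111 and -0.109 in those fits and -0.0283 without NFIAcKO replicate 2, the lowest of a range up to 0.0546 when 1 library was left out. Eif5a2 became 0.0926 and 0.0892 in those fits, and 0.0168, 0.0081 and 0.0119 without control replicate 3, NFIAcKO replicate 1 and NFIAcKO replicate 2, in a range from -0.0639. The log2 ratio difference of Eif4g3 over Eif4g1 became -0.0069 with the trend removed. The cause was not tested. The biological coefficient of variation was 11.5% over all genes, while counting noise was 12.7% at the 62 counts of Eef1akmt4 and 14.6% at the 47 of Eif3j2.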

Other observations

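Pseudogenes whose symbols carry a hyphen fall outside the naming pattern, 11 in all, and their counts bear on the reads of the parent genes. Eif4a-ps4 had 346, 433 and 345 counts in control libraries 1, 2 and 3 and 307, 349 and 279 in NFIAcKO libraries 1, 2 and 3. Eef1a1-ps1 had 59, 105 and 101 counts in control and 51, 62 and 42 in NFIAcKO libraries, against 208574 to 371944 counts for Eef1a1.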
